A study of Mus musculus with 374 samples.

Results

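Expression of 8 erythroid transcription factor genes other than the GATA factors was examined in single blood cells of 1 mouse. The genes were *Klf1*, *Tal1*, *Lmo2*, *Ldb1*, *Zfpm1*, *Gfi1b*, *Nfe2* and *Bcl11a*, chosen by name from the 19829 mouse genes of the count table, and all 8 were listed. The cells came from a C57BL/6 female of 10 to 13 weeks and were deposited singly in the wells of 1 plate with index sorting, which records the fluorescence of each sorted cell. Bone marrow gave 96 erythroblasts (Ter119+ CD44+, mid or high forward scatter), 95 high-end progenitor/stem cells (Lin- Kit+ Sca1+), 96 granulocytes (Mac1+ Gr1+) and 44 B lymphocytes (B220+, low forward scatter), while the thymus gave 43 T lymphocytes (CD3+, low forward scatter). No treatment or genetic change was named for any population. The cells were profiled by CEL-seq2, a method that reads 3′ ends and gives every captured molecule a unique molecular identifier (UMI), so that a count stands for 1 molecule and does not grow with transcript length. Levels are given as the UMIs of a gene summed over the wells of a population and as CPM, the UMIs per 1000000 UMIs on mouse genes in that population.

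Red blood cells arise from stem and progenitor cells through a small circuit of transcription factors that act together on shared enhancers and promoters. Klf1 is a zinc finger activator that binds CACCC elements of the globin and other red cell genes, and Tal1 is a basic helix-loop-helix factor that binds E-boxes in a complex held together by the adaptors Lmo2 and Ldb1. Zfpm1 (FOG1) is a cofactor of GATA factors, Gfi1b is a repressor, Nfe2 is the large subunit of the NF-E2 dimer, and Bcl11a represses embryonic and fetal globin genes. Several of these factors also serve in stem cells, megakaryocytes or lymphocytes.

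*Klf1*, *Tal1*, *Gfi1b* and *Zfpm1* were at least 2-fold higher in the erythroblasts than in the progenitor/stem cells, and *Bcl11a* was lower by more than any other of the 8. For each of these 5 genes 1 promoter window is shown, so that the bases recognised by 3 of the families can be seen next to the levels. A window runs from 250 bases before the start of the transcript to 50 bases after it. The windows are RefSeq sequences of build GRCm38.p6, printed 5′ to 3′ on the strand of the gene. Capitals mark GATA (or TATC, its reverse complement), CACCC (or GGGTG, its reverse complement) and the E-box CANNTG, which reads the same on both strands. Matches may overlap.
Klf1, chr8:84901732-84902031, plus strand: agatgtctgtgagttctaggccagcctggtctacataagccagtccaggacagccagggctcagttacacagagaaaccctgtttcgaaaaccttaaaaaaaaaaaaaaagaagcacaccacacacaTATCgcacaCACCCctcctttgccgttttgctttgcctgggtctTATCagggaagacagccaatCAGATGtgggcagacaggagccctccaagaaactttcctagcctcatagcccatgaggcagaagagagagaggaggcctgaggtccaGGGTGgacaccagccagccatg
Tal1, chr4:115056176-115056475, plus strand: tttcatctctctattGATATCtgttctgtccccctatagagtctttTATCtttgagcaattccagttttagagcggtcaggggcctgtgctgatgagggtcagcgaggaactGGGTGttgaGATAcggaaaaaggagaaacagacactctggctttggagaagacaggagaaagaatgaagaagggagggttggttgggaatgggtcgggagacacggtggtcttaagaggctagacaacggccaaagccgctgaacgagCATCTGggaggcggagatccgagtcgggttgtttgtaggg
Zfpm1, chr8:122281891-122282190, plus strand: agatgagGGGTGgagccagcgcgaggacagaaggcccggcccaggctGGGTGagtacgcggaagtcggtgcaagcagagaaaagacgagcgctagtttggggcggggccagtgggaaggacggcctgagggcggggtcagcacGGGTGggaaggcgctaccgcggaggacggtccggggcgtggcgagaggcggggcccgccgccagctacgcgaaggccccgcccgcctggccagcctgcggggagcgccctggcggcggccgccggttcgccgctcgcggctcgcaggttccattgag
Gfi1b, chr2:28621933-28622232, minus strand: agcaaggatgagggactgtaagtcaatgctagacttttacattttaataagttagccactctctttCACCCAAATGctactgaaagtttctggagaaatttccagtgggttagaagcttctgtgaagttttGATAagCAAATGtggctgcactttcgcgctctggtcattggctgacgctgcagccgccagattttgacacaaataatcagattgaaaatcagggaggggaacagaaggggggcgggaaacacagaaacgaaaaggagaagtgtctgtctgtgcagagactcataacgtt
Bcl11a, chr11:24080445-24080744, plus strand: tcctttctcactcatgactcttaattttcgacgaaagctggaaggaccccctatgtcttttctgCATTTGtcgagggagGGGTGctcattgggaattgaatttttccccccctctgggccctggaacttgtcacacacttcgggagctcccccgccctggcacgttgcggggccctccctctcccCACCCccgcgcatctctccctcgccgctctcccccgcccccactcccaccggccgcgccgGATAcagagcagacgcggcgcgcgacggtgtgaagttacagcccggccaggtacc

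A window was given for 6 of the 8 genes, and *Tal1* and *Ldb1* had more than 1, for 9 windows in all. The *Tal1* window that is not printed held none of the 3 motifs. GATA was found in 5 of the 9, CACCC in 8, CANNTG in 5, and all 3 motifs in 5. Among all 32851 promoter windows of the same length, 57.9% held GATA, 57.5% held CACCC, 72.3% held CANNTG and 22.9% held all 3, so that each of these short motifs was common among promoters. The printed windows of *Klf1*, *Tal1*, *Gfi1b* and *Bcl11a* held all 3 motifs, although *Bcl11a* was lower and the other 3 were higher in the erythroblasts, whereas the GC-rich *Zfpm1* window held 3 CACCC matches and neither of the others. A match is a run of letters and was not tested for binding. In GENCODE M21 (GRCm38) the genes themselves are at chr8:84901928-84905291 (*Klf1*), chr4:115056426-115071755 (*Tal1*), chr8:122282141-122337251 (*Zfpm1*) and chr11:24078056-24174123 (*Bcl11a*) on the plus strand and at chr2:28609450-28621982 (*Gfi1b*) on the minus strand. *Lmo2* is at chr2:103957986-103981878 on the plus strand, and *Ldb1*, at chr19:46031570-46045214, and *Nfe2*, at chr15:103248212-103258403, are on the minus strand. These positions may differ from those of the build behind the counts, which the sources used here do not give.

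The 5 populations were sampled to unequal depth, from 135808 UMIs (B lymphocytes) to 834812 UMIs (progenitor/stem cells), and the median UMI count per well ran from 3028.5 to 7959. The 7 erythroblast markers made up 246693 CPM of the erythroblasts and 13280 to 29188 CPM of the other populations, with none at 0 anywhere, and the 6 progenitor/stem cell markers reached 3527 CPM in their own population and 135 to 230 CPM elsewhere, with *Meis1* at 0 in the granulocytes and in both kinds of lymphocyte. UMIs of both marker lists were thus also counted in wells of the other populations. The 4 adult globin genes took 23.5% of the UMIs of the erythroblasts, and 9 B lymphocyte wells, 2 progenitor/stem cell wells and 1 T lymphocyte well held more than 5% globin. The well labelled B lymphocyte A8 had a Gr1 fluorescence of 15209 and a B220 fluorescence of 352, where no other B lymphocyte exceeded 872 or fell below 358, and it held 114544 CPM of granulocyte markers. Each population filled its own plate rows, so plate row and population cannot be told apart. As all cells of a population came from 1 mouse, a population is 1 sample, no test was made, and the 95% intervals in brackets cover counting error only.

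*Klf1* was the factor most restricted to the erythroblasts, which held 84.2% of its CPM summed over the 5 populations. Its 472 UMIs in the erythroblasts gave 708 CPM (646 to 775), and the 12 UMIs of the progenitor/stem cells gave 14.4 CPM (7.43 to 25.1). The granulocytes held 12 UMIs (29.7 CPM, 15.4 to 51.9), the B lymphocytes 8 (58.9 CPM, 25.4 to 116) and the T lymphocytes 6 (29.9 CPM, 11.0 to 65.2). The erythroblasts were thus higher than every other population beyond counting error, and by 12.0-fold over the next highest, the B lymphocytes, whereas no neighbours below them in the order were separated. Further apart in the order, the progenitor/stem cells were below the B lymphocytes, with a log2 ratio of -2.03 (-3.45 to -0.54). The B lymphocyte value fell to 17.9 CPM when the 9 wells rich in globin were left out, a choice made after the data had been seen, since those wells held 6 of the 8 UMIs. At least 1 *Klf1* UMI was found in 95 of 96 erythroblasts (99.0%, 94.3 to 100.0%), with a median of 4 and up to 12 per cell, against 6 of 43 T lymphocytes (14.0%, 5.30 to 27.9%), which are not known to use the gene. The single erythroblast without it, well C5, held 466 UMIs in all and none of any of the 8 genes.

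The UMIs of *Klf1* outside the erythroblasts were in proportion no more frequent than those of globin. The progenitor/stem cells held 2.54% (1.30 to 4.48%) as many *Klf1* UMIs as the erythroblasts, while for the 4 adult globin genes together that share was 6.46%. In the granulocytes the shares were 2.54% for *Klf1* and 3.97% for globin, in the B lymphocytes 1.69% and 2.45%, and in the T lymphocytes 1.27% and 2.26%. The *Klf1* share was thus below the globin share in each of these populations. Its interval excluded the globin share in the progenitor/stem cells only. Whether the *Klf1* UMIs outside the erythroblasts reflect expression was not tested. The share of wells with a *Klf1* UMI in the progenitor/stem cells, 12.6% at a median depth of 7959 UMIs, was also below the 14.0% of the T lymphocytes at a median depth of 4347 UMIs.

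*Tal1*, needed for the formation of blood stem cells and again in the red cell lineage, had its highest level in the erythroblasts and was also present in the progenitor/stem cells. The erythroblasts held 140 UMIs, or 210 CPM (177 to 248), and the progenitor/stem cells 54 UMIs, or 64.7 CPM (48.6 to 84.4). Only 3 UMIs were counted in the granulocytes (7.43 CPM, 1.53 to 21.7), 4 in the B lymphocytes (29.5 CPM, 8.03 to 75.4) and 2 in the T lymphocytes (9.98 CPM, 1.21 to 36.1). The erythroblasts exceeded the progenitor/stem cells by 3.25-fold, beyond counting error, and the progenitor/stem cells could not be separated from the B lymphocytes, whose interval is wide. A UMI was found in 67 of 96 erythroblasts (69.8%), 36 of 95 progenitor/stem cells (37.9%) and 2 of 43 T lymphocytes (4.65%). The *Tal1* UMIs of the progenitor/stem cells amounted to 38.6% (27.6 to 53.2%) of those of the erythroblasts, above the 6.46% of globin, whereas the shares of 2.14%, 2.86% and 1.43% in the granulocytes, B lymphocytes and T lymphocytes had intervals that held the globin share.

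*Lmo2*, the LIM-only bridge of the complex, was the most abundant of the 8 genes and by CPM was highest in the progenitor/stem cells. There it reached 798 UMIs or 956 CPM (891 to 1025), followed by the erythroblasts with 345 UMIs or 517 CPM (464 to 575). The granulocytes held 47 UMIs (116 CPM, 85.6 to 155), the B lymphocytes 14 (103 CPM, 56.4 to 173) and the T lymphocytes 11 (54.9 CPM, 27.4 to 98.2). By CPM progenitor/stem cells and erythroblasts differed by 1.85-fold, beyond counting error, and the erythroblasts exceeded the granulocytes by 4.44-fold. With scran and TMM size factors the log2 ratio of erythroblasts over progenitor/stem cells was 0.29 and -0.023. The order of these populations thus depends on the scaling. Neighbours further down the order were not separated, though the granulocytes were 2.12-fold above the T lymphocytes (0.12 to 2.18 on the log2 scale). *Lmo2* was detected in 94 of 95 progenitor/stem cells, with a median of 8 and up to 24 UMIs per cell, in 86 of 96 erythroblasts with a median of 3, and in 9 of 43 T lymphocytes (20.9%). As a share of the progenitor/stem cell UMIs, the granulocytes held 5.89% (4.29 to 7.91%), the B lymphocytes 1.75% (0.955 to 2.96%) and the T lymphocytes 1.38% (0.685 to 2.48%), where the markers of that population stood at 2.17%, 0.713% and 1.56%. The share of the T lymphocytes was thus not above that of the markers. This comparison takes 1 source alone, while *Lmo2* was high in the erythroblasts too. The B lymphocytes would hold 8.45 *Lmo2* UMIs at the globin share of the erythroblasts and 5.69 at this marker share, against 14 counted. In the granulocytes these values were 13.7 and 17.3, against 47 counted, and in the T lymphocytes 7.80 and 12.5, against 11. Whether these UMIs reflect expression was not tested.

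*Ldb1*, the widely used adaptor that dimerises and brings enhancers and promoters together, did not follow the red cell lineage. The T lymphocytes held 53 UMIs (264 CPM, 198 to 346), the progenitor/stem cells 153 (183 CPM, 155 to 215) and the B lymphocytes 13 (95.7 CPM, 51.0 to 164). Below these were the erythroblasts with 81.0 CPM (60.8 to 106) from 54 UMIs, and the granulocytes with 27.3 CPM (13.6 to 48.8) from 11 UMIs. The T lymphocytes were 1.44-fold above the progenitor/stem cells, beyond counting error by a small margin, the progenitor/stem cells were 1.91-fold above the B lymphocytes and the erythroblasts 2.97-fold above the granulocytes, while B lymphocytes and erythroblasts were not separated. A UMI was found in 30 of 43 T lymphocytes (69.8%), 73 of 95 progenitor/stem cells (76.8%) and 35 of 96 erythroblasts (36.5%). After every well was thinned to 2000 UMIs these shares were 44.4%, 32.7% and 13.0%, so the order of the first 2 turned around to that of the CPM. The exons of *Ldb1* overlap those of *Pprc1* on the opposite strand by 177 bases, and whether strand was used in counting is not stated.

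*Zfpm1*, the GATA cofactor, was the least abundant of the genes with their highest level in the erythroblasts. The erythroblasts held 47 UMIs (70.5 CPM, 51.8 to 93.7), the progenitor/stem cells 14 (16.8 CPM, 9.17 to 28.1) and the B lymphocytes 7 (51.5 CPM, 20.7 to 106). The T lymphocytes held 4 UMIs (20.0 CPM, 5.44 to 51.1) and the granulocytes 2 (4.96 CPM, 0.600 to 17.9). Erythroblasts and B lymphocytes could not be separated, nor could any other neighbours in the order. Populations further apart in the order could be. The log2 ratio over the B lymphocytes was -1.62 (-3.02 to -0.070) for the progenitor/stem cells and -3.38 (-6.68 to -0.99) for the granulocytes. In the progenitor/stem cells its UMIs were 29.8% (15.1 to 55.0%) of those of the erythroblasts and in the B lymphocytes 14.9% (5.68 to 33.2%), both above the globin shares of 6.46% and 2.45%. The 7 UMIs in the B lymphocytes came from 7 different wells, and 5 of them from wells with at most 5% globin (44.8 CPM without the others).

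*Gfi1b*, which represses genes through recruited corepressors, was 5.35-fold higher in the erythroblasts than in the progenitor/stem cells. The erythroblasts held 94 UMIs (141 CPM, 114 to 173) and the progenitor/stem cells 22 (26.4 CPM, 16.5 to 39.9). The granulocytes held 6 UMIs (14.9 CPM, 5.46 to 32.4), the B lymphocytes 2 (14.7 CPM, 1.78 to 53.2) and the T lymphocytes 2 (9.98 CPM, 1.21 to 36.1). Below the erythroblasts no neighbours in the order were separated, but the progenitor/stem cell UMIs came to 23.4% (14.0 to 37.5%) of those of the erythroblasts, above globin at 6.46%, whereas the shares of the 3 other populations, 2.13% to 6.38%, had intervals that held the globin share. Of the 2 UMIs in the B lymphocytes 1 was in well A8 (7.62 CPM without it). *Gfi1b* was uneven among cells. It was detected in 47 of 96 erythroblasts (49.0%), up to 10 UMIs were counted in 1 cell, and 17 of 95 progenitor/stem cells had it, with up to 4.

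By CPM *Nfe2* stood at levels not separated by counting error in 3 populations, and 3 UMIs in all were counted in both kinds of lymphocyte. The erythroblasts held 145 UMIs (217 CPM, 184 to 256), the granulocytes 82 (203 CPM, 162 to 252) and the progenitor/stem cells 147 (176 CPM, 149 to 207). None of these could be separated from its neighbour in the order: erythroblasts and granulocytes differed by 0.098 on the log2 scale (-0.30 to 0.51). With scran and TMM size factors the log2 ratio of erythroblasts over progenitor/stem cells was 1.95 and 1.17, past 2-fold. Only 2 UMIs, both in 1 well, were counted in the T lymphocytes (9.98 CPM, 1.21 to 36.1) and 1 in the B lymphocytes (7.36 CPM, 0.186 to 41.0), so that the progenitor/stem cells were 17.6-fold above the T lymphocytes with an interval on the log2 scale of 2.26 to 7.20. A UMI was present in 75.0% of erythroblasts, 74.7% of progenitor/stem cells and 53.1% of granulocytes, and at 2000 UMIs per well in 37.7%, 30.3% and 33.4%, against 1.04% of T lymphocytes.

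*Bcl11a* was found mainly in the progenitor/stem cells. It had 46 UMIs or 55.1 CPM (40.3 to 73.5) there, 3 UMIs or 22.1 CPM (4.56 to 64.6) in the B lymphocytes and 2 UMIs or 3.00 CPM (0.363 to 10.8) in the erythroblasts. Progenitor/stem cells and B lymphocytes, 2.49-fold apart, could not be separated at these counts (-0.32 to 3.65 on the log2 scale). None was counted in the granulocytes or in the T lymphocytes. At a limit of 3 UMIs this allows up to 7.43 CPM and 3.12% of wells with a UMI in the former, and up to 15.0 CPM and 6.98% of wells with a UMI in the latter, which limits detection and not the cells that express the gene. It was detected in 34 of 95 progenitor/stem cells (35.8%, 26.2 to 46.3%) and 2 of 96 erythroblasts (2.08%, 0.253 to 7.32%). The 2 UMIs of the erythroblasts were 4.35% (0.511 to 16.6%) of those of the progenitor/stem cells, where the 6 markers of the latter stood at 3.06%. Whether these 2 UMIs reflect expression was not tested. Exons of *Bcl11a* share 316 bases with *4930538E20Rik* on the opposite strand, which had 11 UMIs in all.

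**Figure D1:**
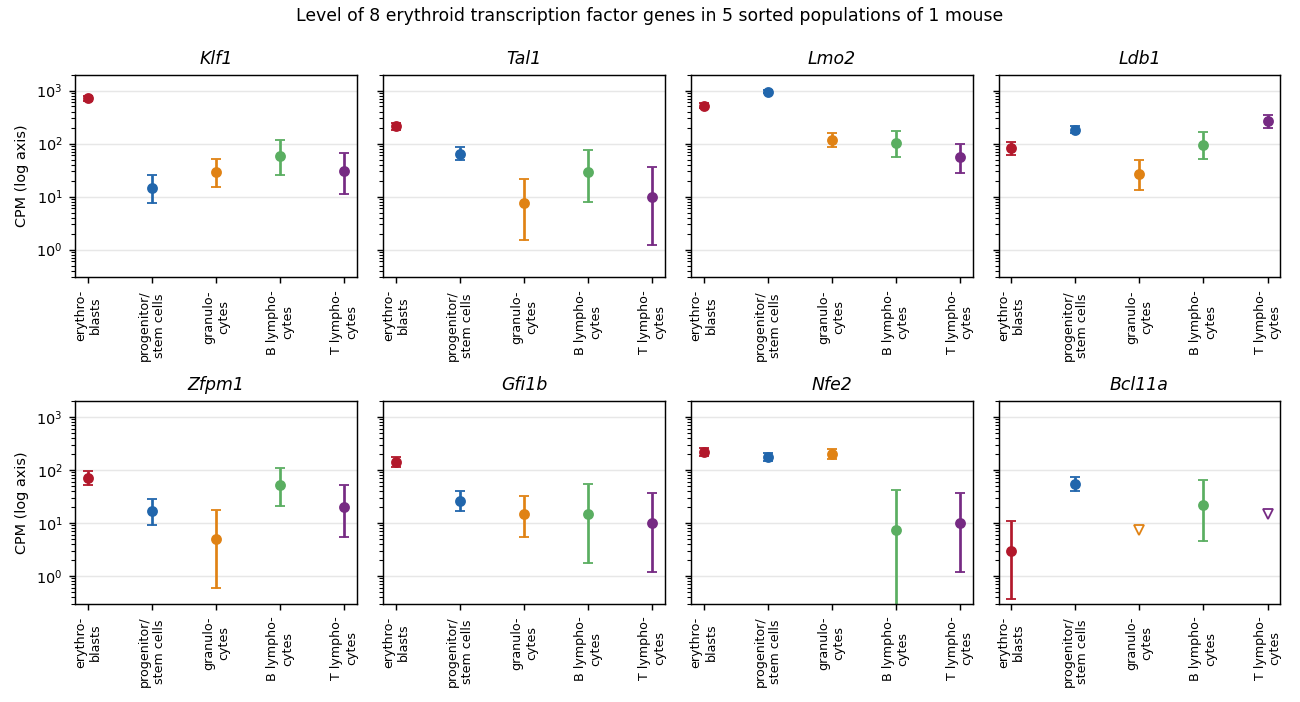
Level of each of the 8 genes in the 5 populations, as CPM on a log axis, with 95% counting intervals and open triangles, at the level that 3 counts would give, for populations with 0 UMIs. *Klf1* stood at 708 CPM in the erythroblasts and at most at 58.9 CPM elsewhere, *Lmo2* and *Bcl11a* were highest in the progenitor/stem cells, and *Ldb1* in the T lymphocytes.

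In all, 5 of the 8 genes (*Klf1*, *Tal1*, *Zfpm1*, *Gfi1b* and *Nfe2*) had their highest CPM in the erythroblasts, where 16.3% of the 9512 genes tested had theirs. For 2 genes (*Lmo2* and *Bcl11a*) it was in the progenitor/stem cells, as for 33.8% of genes, and for *Ldb1* in the T lymphocytes, as for 21.8%. The label of erythroid factor was thus matched by the highest level for 5 of the 8, for 2 of which (*Zfpm1* and *Nfe2*) the next population was within counting error.

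The plot of UMIs outside the erythroblasts sets each gene against globin in the same wells. In the progenitor/stem cells *Klf1*, with 2.54%, lay below globin and *Gata1*, the GATA factor that works with these proteins, a little above it with 11.8% (7.40 to 18.1%), while *Gfi1b*, *Zfpm1* and *Tal1* lay further above. *Gata1* was also above the line in the T lymphocytes, with 5.42% (2.66 to 9.90%) where globin stood at 2.26%. Its intervals in the granulocytes and B lymphocytes held the globin share. In the granulocytes *Nfe2*, with 56.6% (42.6 to 74.6%), and *Lmo2*, with 13.6% (9.82 to 18.5%), stood clear of the line at 3.97%. That line covers the erythroblasts only, and by CPM *Lmo2* was highest in the progenitor/stem cells. Of their *Lmo2* UMIs the granulocytes held 5.89% (4.29 to 7.91%), where the markers of that population stood at 2.17%. The part of erythroblast RNA in the low values of the other genes was not tested.

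**Figure D2:**
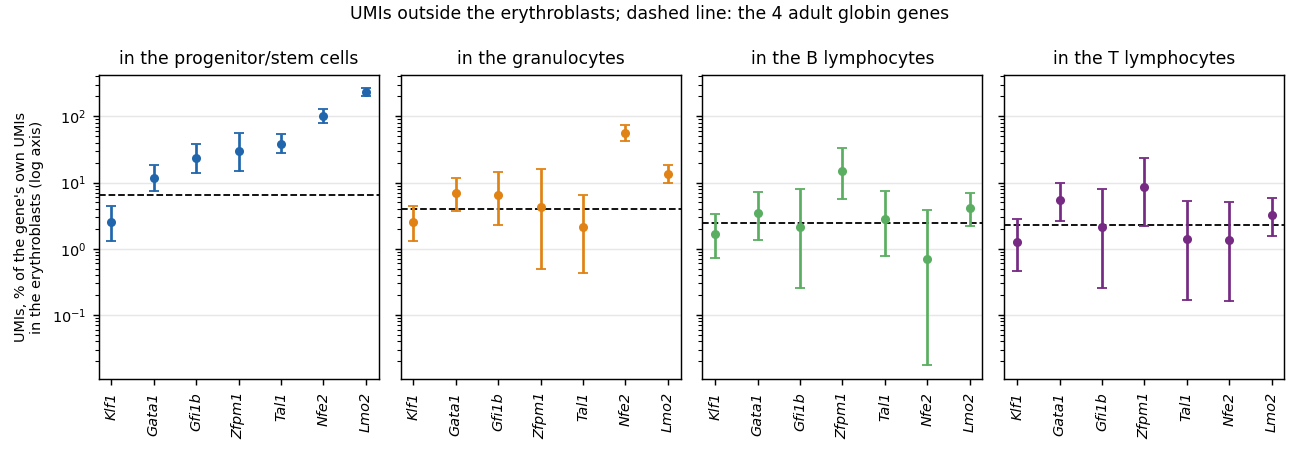
UMIs of a gene in each population as a percentage of its UMIs in the erythroblasts, on a log axis, with 95% counting intervals. The dashed line is the same percentage for the 4 adult globin genes (6.46% in the progenitor/stem cells), and *Klf1* was the only gene plotted that lay below it in all 4 panels with intervals below the line in the progenitor/stem cells.

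Between erythroblasts and progenitor/stem cells the 8 genes differed in both directions. The log2 ratio of CPM, erythroblasts over progenitor/stem cells, was 5.62 (4.80 to 6.58) for *Klf1*, 2.42 (1.74 to 3.16) for *Gfi1b*, 2.07 (1.19 to 3.05) for *Zfpm1* and 1.70 (1.24 to 2.18) for *Tal1*. It was 0.30 (-0.036 to 0.65) for *Nfe2*, -0.89 (-1.07 to -0.70) for *Lmo2*, -1.18 (-1.65 to -0.72) for *Ldb1* and -4.20 (-7.29 to -2.26) for *Bcl11a*. Hence 4 of 8 were at least 2-fold higher in the erythroblasts, where 12.1% of the 8076 genes with at least 20 UMIs in both populations together were, and 2 of 8 were at least 2-fold lower, where 49.4% of genes were. The median over the 8 genes was 1.00 and that over all genes -0.98.

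Among the 8076 ratios *Klf1* was at percentile 99.9, *Gfi1b* at 94.7, *Zfpm1* at 93.7, *Tal1* at 92.1 and *Nfe2* at 79.8. *Lmo2* and *Ldb1*, although lower in the erythroblasts by CPM, were at percentiles 52.5 and 45.3, close to the middle of all genes, and *Bcl11a* was at 5.39. With scran size factors the median of all genes moved from -0.98 to -0.047, the split of all genes changed from 12.1% higher and 49.4% lower to 27.1% and 30.8%, and *Lmo2* turned to 0.29, so its direction depends on the scaling. Relative to the median of all genes *Lmo2* was at 0.093 by CPM and at 0.34 with scran. With TMM factors the median was -0.12, the split was 22.7% and 32.1%, and *Lmo2* stood at -0.023. *Ldb1* was at -0.38 and -0.32 under these 2 scalings and no longer past 2-fold, whereas *Nfe2* rose past it, to 1.95 and 1.17.

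**Figure D3:**
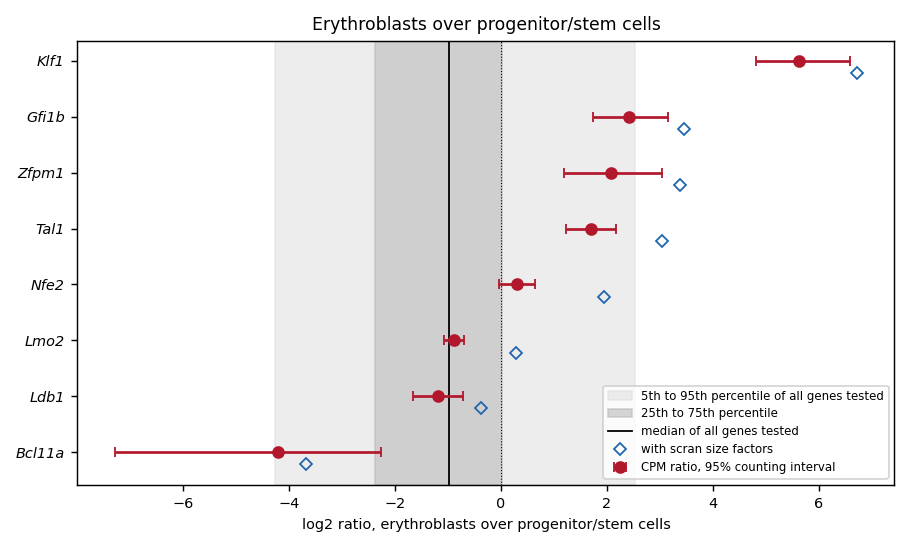
Log2 ratio of the CPM of erythroblasts over progenitor/stem cells for the 8 genes, with 95% counting intervals (red), and the ratio with scran size factors (open diamonds). The bands span the 25th to 75th (dark grey) and 5th to 95th (light grey) percentiles of all 8076 ratios around their median of -0.98 (line), and by CPM *Klf1* alone lay above 2.54, the upper edge of the light band.

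Several of the genes were found together in single cells. In the erythroblasts a median of 5 of the 8 genes were detected per well, with at least 5 in 51 wells, and in the progenitor/stem cells a median of 4, with at least 5 in 23 wells. The other populations had a median of 1 and at most 3 or 4 genes per well. All 67 erythroblasts with *Tal1* and all 35 with *Ldb1* also had *Klf1*, as 95 of 96 erythroblasts did, and 61 of the 67 had *Lmo2*, a share of 91.0% against 89.6% of all erythroblasts. In the progenitor/stem cells 6 of the 12 cells with *Zfpm1* also had *Gfi1b*, which 17.9% of all progenitor/stem cells had, and 3 of the 12 with *Klf1* did. Other pairs were below that share, with *Gfi1b* in 5 of the 36 cells with *Tal1* (13.9%) and 11 of the 73 with *Ldb1* (15.1%). Which pairs to name was not fixed beforehand. Such counts of cells also follow the depth of each well and are given as a description.

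**Figure D4:**
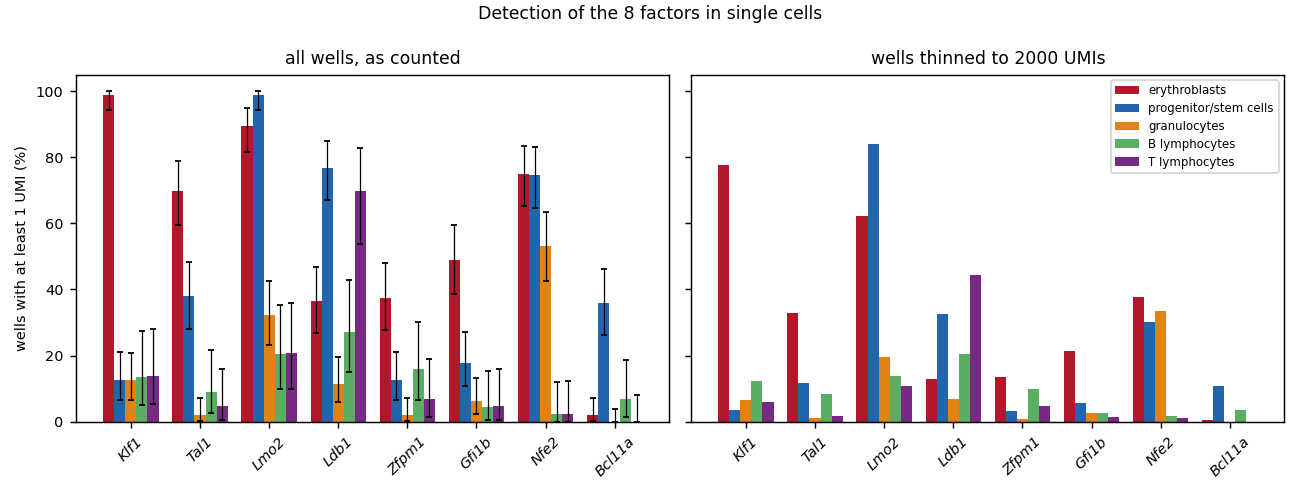
Percentage of wells with at least 1 UMI of each gene in each population, as counted (left, with 95% exact binomial intervals) and after each well was thinned to 2000 UMIs (right, wells below that depth left out). *Klf1* was detected in 99.0% of erythroblasts and in 77.5% after thinning, and in at most 14.0% and 12.4% of any other population.

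Thinning to 2000 UMIs, which left out 1 erythroblast, 10 granulocyte, 11 B lymphocyte and 1 T lymphocyte wells and no progenitor/stem cells, lowered all shares that were above 0. The share of erythroblasts with a UMI was 77.5% for *Klf1*, 62.4% for *Lmo2*, 32.9% for *Tal1*, 21.5% for *Gfi1b* and 13.5% for *Zfpm1*. In the progenitor/stem cells the shares were 3.47%, 83.9%, 11.6%, 5.54% and 3.32%, and in the T lymphocytes 5.91%, 10.9%, 1.81%, 1.46% and 4.62%. *Zfpm1* in the progenitor/stem cells was therefore not above the T lymphocytes by this measure, and 12.6% against 6.98% of wells before thinning.

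The 4 plate rows of the erythroblasts ranged from 628 to 786 CPM for *Klf1*, from 162 to 253 for *Tal1*, from 473 to 574 for *Lmo2* and from 175 to 257 for *Nfe2*. They ranged from 60.8 to 97.5 CPM for *Ldb1*, from 54.0 to 86.6 for *Zfpm1* and from 115 to 169 for *Gfi1b*, on 8 to 27 UMIs a row. Among the progenitor/stem cells *Lmo2* varied most in absolute terms, from 728 CPM in row K to 1151 in row L, with intervals of 614 to 856 and 1009 to 1308 that did not overlap. Both *Bcl11a* UMIs of the erythroblasts were in row F, while the 4 progenitor/stem cell rows held 8 to 15.

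CD44, which falls as erythroblasts mature, divided the erythroblasts into 48 wells of high and 48 of low fluorescence. Globin made up 17.6% of the UMIs of the high wells and 32.7% of the low wells, and 20.7 and 13.9 mouse UMIs were counted per UMI on the ERCC spike-in RNA, so the RNA per cell and its makeup differed too. *Nfe2* was lower in the high wells, with 68 UMIs or 168 CPM against 77 UMIs or 294 CPM, a log2 ratio of -0.81 (-1.30 to -0.32). That ratio was at the 3.59th percentile of 3704 genes, whose median was 0.35. *Gata1* was higher in the high wells, with 341 against 248 CPM and a log2 ratio of 0.46 (0.022 to 0.91), which is close to that median.

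For the other factors the interval of the CD44 ratio held 0. The log2 ratio, high over low, was -0.097 (-0.37 to 0.18) for *Klf1*, -0.30 (-0.80 to 0.21) for *Tal1*, 0.12 (-0.21 to 0.44) for *Lmo2* and 0.13 (-0.50 to 0.77) for *Gfi1b*. It was 0.75 (-0.14 to 1.72) for *Ldb1* and -0.20 (-1.08 to 0.72) for *Zfpm1*, with intervals that leave room for a 2-fold difference. *Bcl11a* had 1 UMI on each side. By CPM none of the 7 genes with at least 20 UMIs was past 2-fold, where 23.5% of genes were higher and 2.02% lower in the high wells. Per UMI of spike-in RNA *Ldb1* was past it, at 1.33, where the median gene stood at 0.93. Without the 4 adult globin genes in the total *Nfe2* was past it, at -1.10, where the median gene stood at 0.058. The share of all genes past 2-fold under these 2 scalings was not counted. Per UMI of spike-in RNA, *Nfe2* was at -0.23, *Klf1* at 0.48, *Tal1* at 0.28 and *Lmo2* at 0.69 where the median gene was at 0.93, so *Nfe2* was below the median gene while its own difference was smaller. Between the 32 wells of highest and the 32 of lowest CD44, *Nfe2* differed by -1.36 (-2.01 to -0.73).

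**Figure D5:**
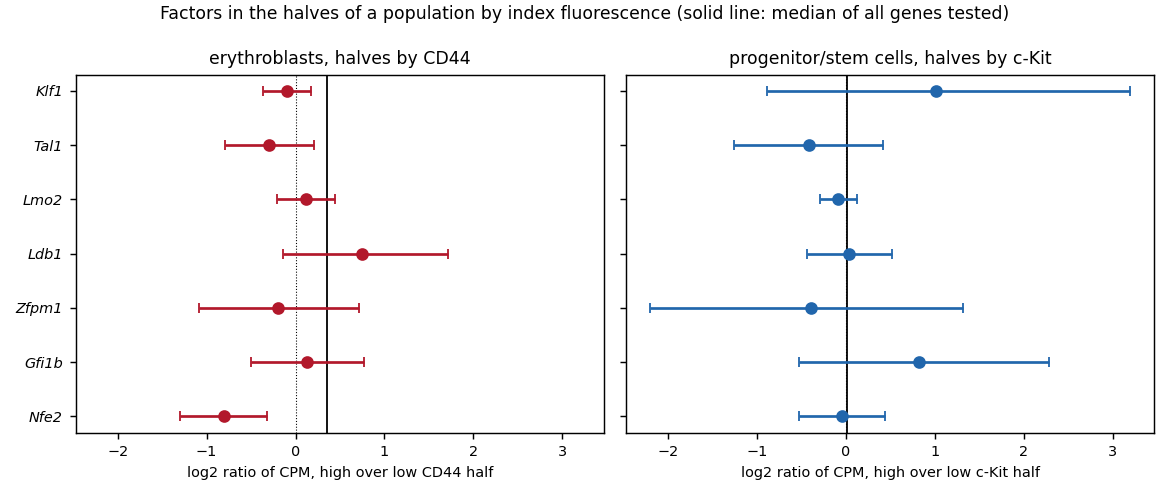
Log2 ratio of CPM between wells of high and low index fluorescence, for CD44 in the erythroblasts (left) and c-Kit in the progenitor/stem cells (right), with 95% counting intervals and the median of all genes (solid line, 0.35 and 0.018). *Nfe2*, at -0.81, was the only gene with an interval below 0 in the left panel, and every interval of the right panel held 0.

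By forward scatter, a measure of cell size, *Lmo2* was higher in the 46 larger erythroblasts than in the 50 smaller ones, with 586 against 435 CPM and a log2 ratio of 0.43 (0.11 to 0.75), near the median of 0.31 over all genes. None of the 7 genes was past 2-fold by scatter, where 15.8% of genes were higher and 1.73% lower in the larger cells. *Nfe2* had a ratio of -0.40 (-0.89 to 0.09). In the progenitor/stem cells the wells of high and low c-Kit differed in none of the 8 genes beyond counting error, and *Lmo2*, with the narrowest interval, had a log2 ratio of -0.083 (-0.29 to 0.12). Of the 6 genes with at least 20 UMIs there, none was past 2-fold by c-Kit, where 3.92% of genes were higher and 2.73% lower in the high wells, or by Sca-1, where 2.65% were higher and 2.83% lower. Between the 31 wells at either end of c-Kit, *Gfi1b* stood at 1.27 (-0.52 to 3.40) on 10 UMIs against 4, fewer than 20 in all. By Sca-1, *Lmo2* was at 0.21 (0.0022 to 0.41), *Tal1* at -0.60 (-1.48 to 0.24) and *Bcl11a* at 0.54 (-0.36 to 1.46), and *Gata2* at -0.59 (-1.16 to -0.030). Here 47 wells were compared with 48.

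The genes with the most similar pattern over the 5 populations were found from the share of each population in the summed CPM, among 6313 genes with at least 50 UMIs. For *Klf1* they included *Btnl10* at a distance of 1.16% of the total and *Slc6a9*, a glycine transporter gene, at 1.85%. For *Tal1* they were *Gm10110* (3.67%), *Mcm10* (5.29%) and *Cyb5r3* (5.52%), and for *Gfi1b* *Tubb4b-ps1* (2.94%), *Dbf4* (3.91%) and *Vangl1* (4.01%). *Mcm10* and *Dbf4* take part in DNA replication. Such roles were not compared with those of the nearest genes of the other members, so no link to the erythroblast pattern is drawn.

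For the other genes the nearest patterns were *Rpl21-ps11* (3.86%), *Mettl7a1* (5.86%) and *Cntln* (6.64%) for *Lmo2*, *Orc3* (3.66%), *Fubp1* (3.87%) and *Dcaf15* (4.39%) for *Ldb1*, and *Pla2g12a* (6.03%), *Slc25a51* (6.85%) and *Atl2* (7.54%) for *Zfpm1*. They were *Scarb1* (7.98%), *Dna2* (10.3%) and *Tfdp1* (12.7%) for *Nfe2*, and *P2ry14* (11.4%), *Mef2c* (12.3%) and *Sfi1* (13.1%) for *Bcl11a*. The likeness is a description over 5 points.

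Genes known to work with the 8 factors were compared between the same 2 populations. Of 11 partners of the Tal1 complex, 2 were at least 2-fold higher in the erythroblasts and 6 lower, where 12.1% and 49.4% of all genes were, with a median log2 ratio of -1.48 against -0.98 for all genes. *Gata1* was the highest at 3.40 (2.79 to 4.08), with 203 UMIs against 24, and *Gata2*, which precedes it in stem and progenitor cells, the lowest at -4.24 (-5.89 to -2.97), with 5 UMIs against 118. *Ssbp3*, whose protein binds Ldb1, was the other gene higher, at 1.61 (1.29 to 1.94).

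Of the small Maf and Cnc-Bach factors, from which the partners of Nfe2 come, 4 of 7 had enough UMIs. *Mafk*, a small Maf partner, was higher at 1.17 (0.35 to 2.04), with 36 UMIs against 20, *Nfe2l1*, a relative of Nfe2, lower at -1.34 (-2.22 to -0.53), and the other 2 were within 2-fold. Of all genes 12.1% were higher and 49.4% lower. The median over the 4 genes was -0.13, against -0.98 for all genes. Among 14 corepressor genes 1 was higher and 6 lower, where 12.1% and 49.4% of all genes were, with a median of -0.92. *Mbd2*, a methyl-CpG binding protein, was the highest at 1.54 (1.18 to 1.91), and *Ctbp2* the lowest with 0 UMIs against 40.

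Among 7 relatives or counterparts of the 8 genes with enough UMIs, 3 were higher (*Klf3*, *Klf13* and *Zbtb7a*) and 4 lower (*Klf6*, *Klf10*, *Gfi1* and *Lmo4*), where 12.1% and 49.4% of all genes were. *Klf3*, a repressor that binds the same CACCC elements as Klf1, was the highest at 2.74 (2.44 to 3.06), with 546 UMIs against 102. *Gfi1*, the paralog of *Gfi1b*, was the lowest at -3.26 (-6.39 to -1.25), with 2 UMIs against 24, so *Gfi1* and *Gfi1b* differed in opposite directions.

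All 16 erythroid target genes in the table were at least 2-fold higher in the erythroblasts, against 12.1% of all genes, with a median log2 ratio of 4.37, from 3.34 (3.09 to 3.60) for *Tfrc*, the transferrin receptor, to 6.55 (5.18 to 8.44) for *Ermap*, a red cell surface protein. Of these 16 genes 6 are also markers used to check the sort. The embryonic globin genes were at the edge of detection, with 16 UMIs of *Hbb-y*, 12 of *Hbb-bh1* and 3 of *Hba-x* in the erythroblasts and 0 in the progenitor/stem cells, against 156928 UMIs of the 4 adult genes in the same erythroblasts. Among 4 megakaryocyte genes with enough UMIs, *Gp9*, a subunit of the von Willebrand factor receptor, was higher at 1.16 (0.16 to 2.22), with 25 UMIs against 14, and 3 were lower, where 12.1% and 49.4% of all genes were, with a median over the 4 genes of -2.52.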

How the data were processed

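The authors processed the reads with scPipe, which aligns them (with Rsubread unless another aligner is chosen), assigns them to exons, separates cells by barcode and collapses UMIs, and they deposited raw UMI counts, which are whole numbers for each gene in each well. The genome build, annotation, aligner version and use of strand were not given in the sources used here. Wells were matched to samples by plate position, and 9 columns that matched no sample were not used. Symbols came from GENCODE M21 and promoters from RefSeq GRCm38.p6, of which no coordinate was compared with the counts.

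Counts were summed per population with Python 3.11.15, numpy 2.4.6, pandas 2.3.3 and scipy 1.17.1, drawn with matplotlib 3.10.9, and scaled to UMIs on mouse genes. Intervals at 95% are exact Poisson (CPM), exact binomial (shares of wells) and exact conditional binomial (ratios). A sum of 0 was given the limit of 3 counts. Thinned shares are the expected share of wells with a UMI at 2000 UMIs, with 1000 UMIs as an alternative. No p-value was computed, with 1 sample per population. Alternatives used scran 1.30.0 and the TMM factors of edgeR 4.0.16 under R 4.3.3, no globin, ERCC UMIs, other wells, thresholds and filters, and 1 on wells rich in globin was added after the data were seen. The interval code was tested on simulated data.

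The 8 genes and the lists of other genes were chosen with earlier results of these data known. Named besides the 8 are the 3 nearest patterns of each, the highest and the lowest gene of each list, *Gata1* and *Gata2*, except for some genes that are not reported here, while *Ssbp3* and the genes given for counts of 5 or fewer were named after their values were seen. Replicate numbers were given in accession order only.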

Additional observations from a re-analysis of the deposited data

How the results depend on the processing

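Of 231 alternative values, 194 moved by less than counting error (for counts of genes, by less than 1.5 times), 36 by more, and 1 whose interval excluded 0 turned its direction. That was the log2 ratio of erythroblasts over progenitor/stem cells of *Lmo2*, at 0.29 with scran size factors. Other values, whose intervals held 0, also changed sign, among them the c-Kit ratio of *Zfpm1*, from -0.40 to 0.95 between the outer wells. With the same factors *Klf1* was at 6.72, *Tal1* at 3.04, *Ldb1* at -0.38, *Zfpm1* at 3.38, *Gfi1b* at 3.46 and *Nfe2* at 1.95. With TMM factors *Tal1* was at 2.56, *Lmo2* at -0.023, *Ldb1* at -0.32, *Gfi1b* at 3.28 and *Nfe2* at 1.17, and without globin in the total *Lmo2* was at -0.52 and *Nfe2* at 0.67. These scalings lifted the median of all genes from -0.98 to -0.047, -0.12 and -0.61. The number of the 8 genes past 2-fold lower in the erythroblasts was 1 in place of 2 under each of the 3 and at 4-fold. It was 3 at 1.5-fold, per ERCC UMI and with the mean over wells, where *Lmo2* was at -1.00 and -1.03 under the last 2. Of all genes, 30.8% were lower with scran, 32.1% with TMM and 41.0% without globin. Per ERCC UMI 52.5% of all genes were lower, and with the mean over wells 53.6%. The number of the 8 past 2-fold higher was 5 in place of 4 with scran and TMM, where 27.1% and 22.7% of all genes were, and 3 at 4-fold. Shares of all genes at 1.5-fold and 4-fold were not computed. With at least 1 UMI in place of 20, 19.7% of genes came out past 2-fold higher. That share is not one of genes higher in the erythroblasts, because a sum of 0 was given 3 counts. A gene with 0 UMIs in the erythroblasts and 1 in the progenitor/stem cells was thereby counted as higher. Between the CD44 wells *Klf1* was at -0.39 without globin in the total, and per ERCC UMI *Klf1* was at 0.48, *Tal1* at 0.28, *Lmo2* at 0.69 and *Nfe2* at -0.23. The 32 wells at either end of CD44 gave -1.36 for *Nfe2* and no value for *Bcl11a*, and the 31 at either end of c-Kit gave 0.49 for *Tal1*. Apart from these scalings the cause of a move was not tested. Without 1 plate row at a time, the ratio of *Klf1* ran from 5.33 to 6.00 and that of *Bcl11a* from -4.33 to -3.24, the last without row F, which held both *Bcl11a* UMIs of the erythroblasts. Most sums under 20 UMIs had intervals too wide to order neighbouring populations. No paired analysis was possible because replicate numbers only name wells in accession order.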
